A study of Mus musculus with 2 samples.

Results

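The genes described here varied unequally from cell to cell in a Srf knockout and a wild-type library: Fabp5 and Fabp3 (fatty-acid binding proteins), Cd63 (a tetraspanin of late endosomes and lysosomes), and Fth1 and Ftl1 (the heavy and light chains of ferritin). They are 5 of the 27998 genes of the matrix, and were listed because their squared coefficient of variation (CV2, the variance of a gene's counts over cells divided by the squared mean) differed between the libraries. That measure and the levels over the same cells are therefore descriptions. The cells were mouse induced pluripotent stem cells (iPSCs, somatic cells turned back into pluripotent cells by reprogramming factors) in medium containing serum. The knockout cells had both Srf alleles deleted (SRFΔ/Δ) and the wild-type cells kept both floxed alleles (SRFf/f). Srf encodes serum response factor, a transcription factor that binds CArG boxes in promoters of cytoskeletal and immediate early genes.

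Each genotype was represented by 1 droplet library (10x Genomics Chromium), so no difference between the genotypes could be tested and no p-value is given. The 1073 knockout and 954 wild-type cells held 22277996 and 24005849 UMIs (unique molecular identifiers, which count captured transcripts). After filtering, 970 knockout and 900 wild-type cells were analysed, with medians of 21448 and 26596.5 UMIs. The libraries shared 2 cell barcodes. In the analysed cells outside the groups named below, Srf had 3 UMIs among 18628879 in knockout cells, against 199 among 23260702 for wild type. Every interval is a 95% interval that covers counting error and nothing of the spread between cultures or clones.

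Fatty-acid binding proteins are small cytosolic carriers that bring fatty acids to membranes, mitochondria and the nucleus. Fabp5 is known from skin, macrophages and many other cells, and Fabp3 from heart and skeletal muscle. Cd63 sits in the membranes of lysosomes and of the vesicles shed as exosomes. Ferritin is a hollow shell of both chains: Fth1 oxidises iron so that it can enter the shell, Ftl1 helps the iron core to form, and macrophages that recycle iron from red cells are rich in it. Primitive endoderm, the layer that forms the lining of the yolk sac, takes up protein through Cubn and Dab2 and has a large lysosomal system.

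In GRCm38, per GENCODE M21, Fabp5 (ENSMUSG00000027533) lies at chr3:10012548-10016607 on the plus strand and Fabp3 (ENSMUSG00000028773) at chr4:130308595-130315463 on the plus strand. Cd63 (ENSMUSG00000025351) lies at chr10:128900989-128912822 on the plus strand, Fth1 (ENSMUSG00000024661) at chr19:9980598-9985098 on the plus strand, and Ftl1 (ENSMUSG00000050708) at chr7:45457944-45459884 on the minus strand. All 5 are protein coding. The ferritin genes have processed copies, and how reads shared with them were counted is not given in the sources used here. Gm10116, a copy of Ftl1, held 3673 knockout UMIs and 2941 wild-type UMIs, and Fabp3-ps1 held 66 and 119. How many reads of Ftl1 or Fabp3 went to such copies, or came from them, cannot be told from these counts.

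Fabp3 was the member with the largest difference in level between the libraries, so the 250 bases upstream of its RefSeq start (GRCm38.p6, chr4:130308488-130308737, plus strand) are shown. The capitals mark a match, on the opposite strand, to the core of the metal response element, the motif bound by the zinc-sensing factor Mtf1.

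Fabp3: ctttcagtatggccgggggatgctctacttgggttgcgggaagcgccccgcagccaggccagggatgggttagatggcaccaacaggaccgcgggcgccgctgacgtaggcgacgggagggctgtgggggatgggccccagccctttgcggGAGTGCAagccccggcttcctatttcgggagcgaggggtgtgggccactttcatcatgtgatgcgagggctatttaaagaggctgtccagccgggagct

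The search covered 5 motifs on both strands in the windows of Fabp3, Cd63, Fth1 (2 windows) and Ftl1. The metal response core, written as TGCGCNC or TGCACNC, is found in 21.4% of all 32851 windows of this length, and among these it was found in the Fabp3 window alone. TATAAA is in 12.4% of all windows and in 1 of the Fth1 windows. TGACNNNGC, the core of the antioxidant response element that regulates ferritin genes in other settings, is in 10.2% of all windows and CACGTG is in 6.02%, and neither was in these. The CArG box bound by serum response factor, found in 1.47% of all windows, was in 0 of the 5. These letters may lie outside the windows searched.

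The level of Fabp3 was lower in the knockout library. Summed over the analysed cells, Fabp3 had 2169 UMIs in the knockout, or 104 counts per 1e6 UMIs (CPM), and 4888 UMIs in the wild type, or 209 CPM. On the log2 scale the knockout to wild-type ratio was -1.01 (interval -1.09 to -0.94), against a median of 0.07 over the 6467 genes that averaged 10 CPM or more. Fabp3 was the 1 member of 5 at least 2 times lower, and 0.572% of all 6467 genes were. None of the 5 was at least 2 times higher, against 1.14% of all genes.

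Each of the other 4 members was within 0.25 of equal on the log2 scale. Fabp5 stood at 66.0 CPM (knockout) and 75.7 CPM (wild type), with a log2 ratio of -0.20 (interval -0.30 to -0.09). Cd63 stood at 122 and 124 CPM (log2 ratio -0.02, interval -0.10 to 0.05). Their near-equal sums came from unlike cells, as described below. Fth1 was at 1533 CPM (knockout) against 1310 CPM (wild type) (log2 ratio 0.23, interval 0.20 to 0.25). Ftl1 was at 9510 and 10138 CPM (log2 ratio -0.09, interval -0.10 to -0.08), so this chain was slightly lower while the heavy chain was slightly higher.

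The variation between cells, the measure by which the genes were listed, is given here as a description. To compare cells of unlike depth, each was thinned to 7675 UMIs, which left 826 knockout and 857 wild-type cells, and 144 and 43 shallower cells were left out. The CV2 of Fabp5 was 25.6 over the knockout cells against 4.41 over the wild-type cells, at means of 0.516 and 0.561 UMIs per cell. Its log2 ratio of 2.54 was the highest of the 1634 genes with a mean of at least 0.5 in each library, whose median was 0.05. For Fabp3 the CV2 was 5.24 and 1.59 (log2 ratio 1.72, rank 3), and for Cd63 it was 4.49 and 1.80 (log2 ratio 1.32, rank 7).

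Ferritin went the other way. The CV2 of Fth1 was 3.35 over the knockout cells against 9.76 over the wild-type cells, a log2 ratio of -1.54 and the lowest of the 1634 genes. That of Ftl1 was 0.235 and 0.321 (log2 ratio -0.45, rank 1587). So 3 of 5 members were at least 2 times more variable in the knockout, where 0.918% of the 1634 genes were, and 1 was at least 2 times less variable, where 0.122% were. These genes were picked by this measure, so nothing is read from those counts.

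**Figure D1:**
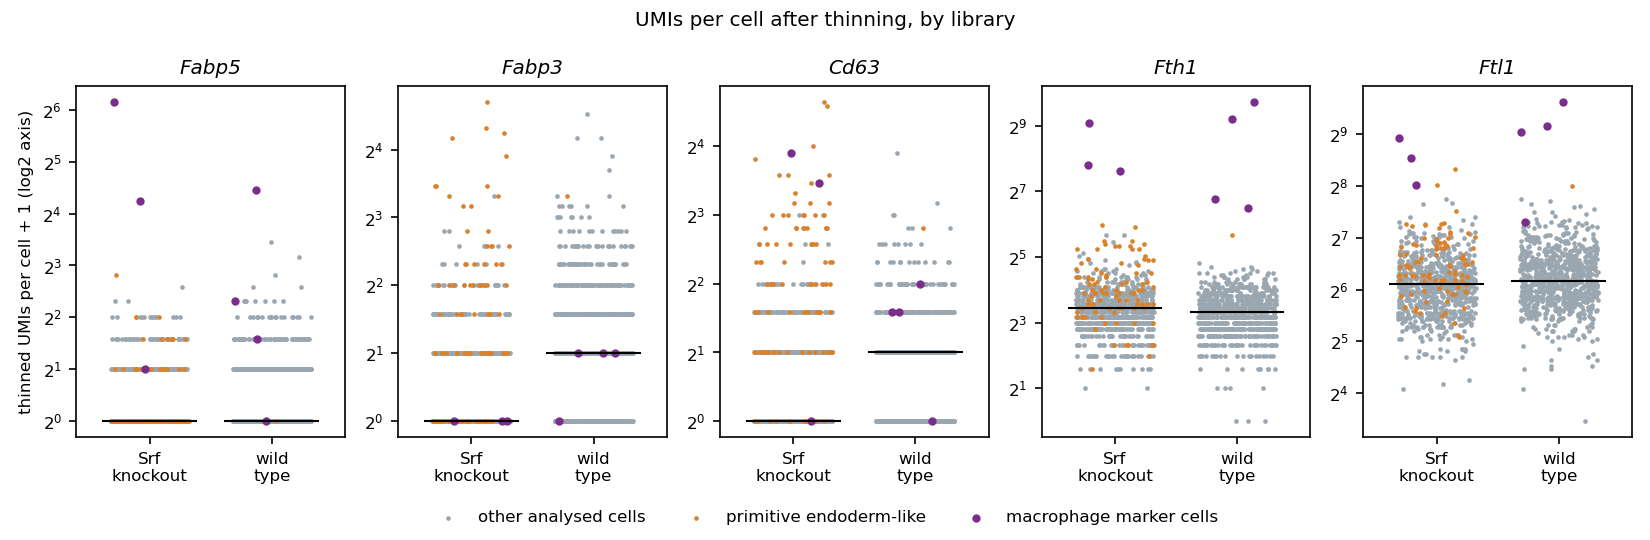
UMIs per cell plus 1 after thinning to 7675 UMIs (log2 axis) for the 5 genes in the knockout (826 cells) and wild-type (857 cells) libraries. Each point is a cell, the bar is the median over the library, and the purple points, 3 knockout and 4 wild-type cells rich in macrophage-marker UMIs, hold the highest Fabp5, Fth1 and Ftl1 counts of both libraries.

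The highest counts were held by small groups of cells. A few cells of both libraries carried many UMIs of a 12-gene macrophage list (Ptprc, Csf1r, Tyrobp, Fcer1g, Lyz2, Cd68, Adgre1, C1qa, C1qb, C1qc, Pf4 and Ctss). Cells with at least 20 such UMIs are called macrophage-marker cells here. The limit was set after the values were seen, and no cell lay between 7 and 71. The analysed knockout cells included 6 of them (0.619%, exact interval 0.227 to 1.34) and the wild-type cells 4 (0.444%, interval 0.121 to 1.13). Every gene of the list was detected in both sets, for example Lyz2, the macrophage lysozyme, with 918 UMIs in the 6 knockout cells and 427 in the 4 wild-type cells. The remaining analysed cells of each library held 43 and 17 Lyz2 UMIs in sum. No barcode of these cells was shared between the libraries.

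The genotype of these cells could not be read from Srf. They held 0 Srf UMIs of 65234 (knockout) and 2 of 69776 (wild type), too few to tell. Pou5f1, a core pluripotency factor, had 2 UMIs over the 6 knockout cells, and the wild-type cells had 10 and 12 in 2 cells and 0 in the others. Those 2 wild-type cells also had 2 and 1 UMIs of Nanog, another such factor. They held 24767 and 21567 of the 69776 UMIs, so the wild-type sums over macrophage-marker cells rest largely on them. Whether RNA of pluripotent cells was mixed into them was not tested. Gata6 and Cubn were at 0 in all 10, whereas Dab2, which macrophages also express, had 1 to 16 UMIs in each. The mitochondrial share was 1.96% to 9.57% in the knockout cells and 5.64% to 7.33% in the wild-type cells, near the 10% limit in several.

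Ferritin transcripts made up 3.45% to 18.2% of all UMIs of a macrophage-marker cell. Fth1 had 128, 317, 342, 418, 448 and 944 UMIs in the 6 knockout cells, and 256, 320, 1054 and 1061 in the 4 wild-type cells. Ftl1 had 282, 332, 574, 666, 967 and 1039 UMIs in the knockout cells, and 425, 670, 1402 and 1799 in the wild-type cells. The ranges of the libraries overlapped for both chains. Summed, Fth1 was 30.5 times its level in the other knockout cells and 32.5 times that in the other wild-type cells, where "other" leaves out the macrophage-marker and primitive endoderm-like cells. Ftl1 was 6.56 and 6.20 times higher, so the fold of the heavy chain was larger than that of the light chain in both libraries.

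Fabp5 was uneven within the macrophage-marker cells. The 6 knockout cells had 0, 4, 5, 30, 34 and 122 UMIs, and the 4 wild-type cells 4, 4, 14 and 24. A single knockout cell thus held 122 of the 195 Fabp5 UMIs of the knockout set. Its level in sum was 53.6 times that of the other knockout cells (2989 against 55.7 CPM) and 8.90 times that of the other wild-type cells (659 against 74.1 CPM). Fabp3 was at 0 in all 6 knockout cells, where the limit that a count of 0 allows is 3 UMIs of 65234, and had 1, 1, 2 and 3 UMIs in the wild-type cells. Cd63 had 3 to 22 UMIs per knockout cell and 2 to 7 per wild-type cell, or 12.5 and 1.99 times the level in other cells.

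After thinning, 3 knockout and 4 wild-type macrophage-marker cells remained, and they held most of the variance of Fth1 in both libraries and of Fabp5 in the knockout. For Fabp5 they held 20.9% of the knockout UMIs and 91.5% of the variance, and 5.61% and 36.3% in the wild type. The 3 knockout cells had 70, 18 and 1 thinned Fabp5 UMIs, so a single cell held most of this. Without the highest cell of each library the log2 ratio of the Fabp5 CV2 was 0.69. For Fth1 the macrophage-marker cells held 9.65% of the knockout UMIs and 89.8% of the variance, and 16.9% and 98.1% in the wild type. The highest thinned Fth1 counts were 545 in a knockout cell and 844 in a wild-type cell, both macrophage-marker cells, where the library medians were 10 and 9. For Ftl1 they held 28.8% and 54.7% of the variance.

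With these cells left out, the CV2 of Fabp5 was 3.37 over 823 knockout cells and 3.13 over 853 of wild type (log2 ratio 0.11), and its highest count was 6 and 10. Its knockout mean of 0.409 then fell under the minimum of 0.5, so it has no rank. Counting noise alone gives a CV2 of 1/mean, which is larger at the lower knockout mean. Above it (CV2 minus 1/mean) Fabp5 was less variable in the knockout, at 0.932 against 1.25 (log2 ratio -0.43). Fth1 changed direction, with a CV2 of 0.406 and 0.225 (log2 ratio 0.86, rank 28 of 1637). Ftl1 went to 0.173 and 0.153 (log2 ratio 0.18). Fabp3 (1.72) and Cd63 (1.29) stayed the members at least 2 times more variable in the knockout, where 0.794% of 1637 genes were. In level, Fabp5 went from -0.20 to -0.38 (56.9 and 73.9 CPM).

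**Figure D2:**
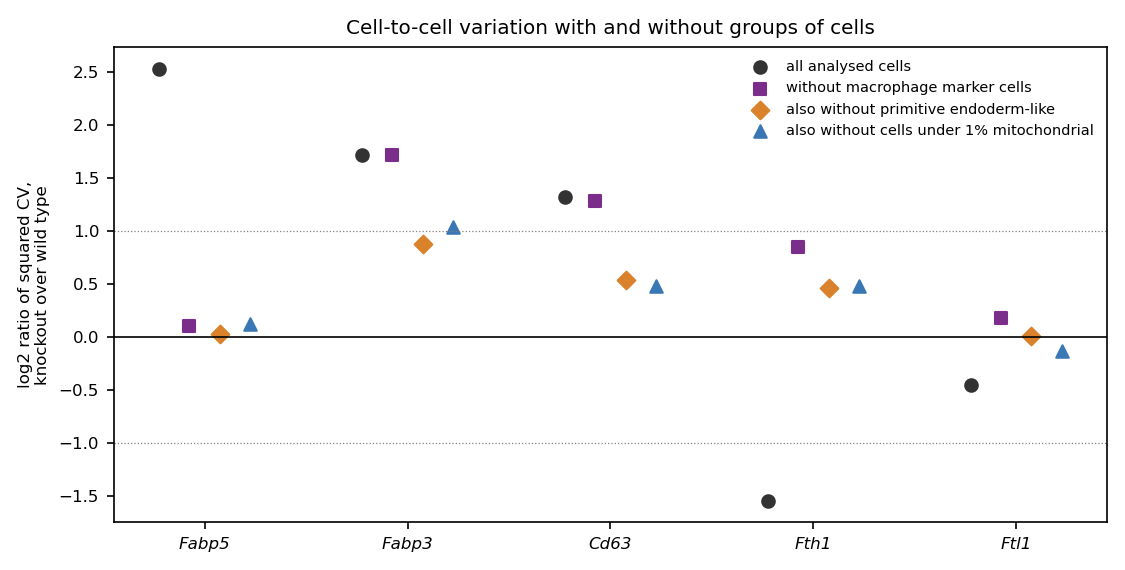
Log2 ratio of the CV2 of each gene, knockout over wild type, in all analysed cells and with groups of cells left out in steps (dotted lines at a 2-fold difference). Fabp5 drops from 2.54 to 0.11 and Fth1 moves from -1.54 to 0.86 without the macrophage-marker cells, and Fabp3 and Cd63 fall to 0.88 and 0.54 once the primitive endoderm-like cells are also left out.

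The high counts of Fabp3 and Cd63 lay elsewhere, in primitive endoderm-like cells of the knockout. A cluster named from its markers (9 of the marker list among its 50 leading genes; the 5 members and Srf were kept out of the clustering) held 99 of the analysed knockout cells and a single wild-type one (1 cell). With 1 cell on the wild-type side, the libraries are not compared within it. In the 99 knockout cells Cd63 stood at 513 CPM (interval 484 to 544) against 72.4 CPM in the other knockout cells, 7.09 times higher. Fabp3 stood at 338 CPM (interval 314 to 363) against 75.6 CPM, 4.47 times higher. Fth1 was 1.76 times higher, Ftl1 1.34 times and Fabp5 1.20 times (66.7 against 55.7 CPM). So 2 of 5 members were at least 2 times higher there, and 17.1% of 6863 genes were. The wild-type cell of the cluster had 25 Fabp3, 42 Cd63, 297 Fth1, 1627 Ftl1 and 0 Fabp5 UMIs among 46778.

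This cluster held 45.0% of all Cd63 UMIs of the analysed knockout cells and 35.0% of all Fabp3 UMIs. Of the thinned variance it held 73.5% for Cd63 and 75.2% for Fabp3, 20.2% for Ftl1 and 1.39% for Fabp5. When it and the macrophage-marker cells were left out, 728 knockout and 852 wild-type cells remained. The CV2 of Fabp3 was then 2.92 and 1.58 (log2 ratio 0.88), that of Cd63 2.62 and 1.80 (0.54), and that of Fth1 0.283 and 0.205 (0.46). Ftl1 was at 0.149 and 0.148 (0.01) and Fabp5 at a log2 ratio of 0.03, with the median of 1633 genes at 0.02. In these cells 0 of the 4 members with a mean of at least 0.5 were 2 times more variable in the knockout, and 0.429% of all genes were. Above counting noise the differences of Fabp3 and Cd63 were smaller, because their knockout means were lower (0.588 against 1.6 UMIs per cell for Fabp3, 0.549 against 0.926 for Cd63). As CV2 minus 1/mean the log2 ratio was 0.34 for Fabp3 and 0.14 for Cd63, while that of Fth1 was 0.90 and that of Fabp5 -0.73. Leaving out cells with under 1% mitochondrial counts as well (243 knockout and 16 wild-type cells) gave 1.04 for Fabp3, past 2-fold as 0.184% of all genes were, and 0.49 for Cd63. That call was lost above counting noise, where the ratio was 0.49 for Fabp3 and 0.20 for Cd63, and the variance over the mean of Fabp3 was lower in the knockout (1.6 against 2.22).

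**Figure D3:**
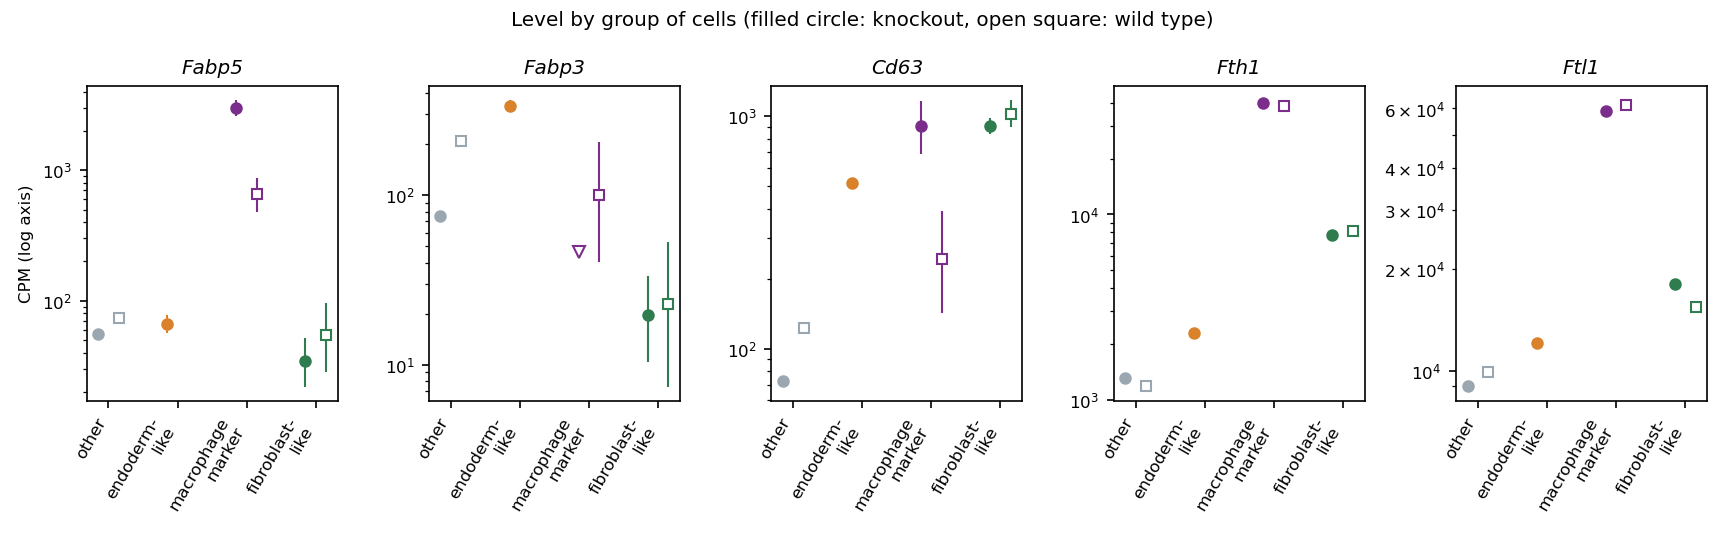
CPM (log axis) of each gene summed over the other analysed cells, the primitive endoderm-like cells (99 knockout; the single wild-type cell is not drawn), the macrophage-marker cells (6 and 4) and the fibroblast-like cells (25 and 14), with 95% counting intervals. The triangle is the limit of 3 UMIs for Fabp3, at 0 UMIs in the knockout macrophage-marker cells; Fabp5 and Fth1 peak in macrophage-marker cells, and Fabp3 is highest in primitive endoderm-like cells.

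Removing the endoderm-like cells also changed the comparison of levels. Without them and the macrophage-marker cells Cd63 was at 72.4 CPM (knockout) against 122 CPM (wild type), a log2 ratio of -0.76 where it had been -0.02. Fabp3 was at 75.6 and 209 CPM, a log2 ratio of -1.46, and was again the 1 member at least 2 times lower, where 0.579% of 6385 genes were. Fabp5 was at -0.41, Ftl1 at -0.14 and Fth1 at 0.14. The near-equal Cd63 sum over all analysed cells therefore combined a lower level in 865 knockout cells with a high level in 99.

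The fibroblast-like cells, 25 of the knockout library and 14 of the wild-type library, were left out of the analysed cells. They give a further point of reference. Srf had 14 UMIs among 665751 in the 25 cells (21.0 CPM) and 5 among 219264 in the 14 cells (22.8 CPM). In the other knockout cells it was at 0.161 CPM. The 25 cells thus held Srf transcripts, and whether they carried the deletion was not tested. For them "knockout" names the library only. Cd63 in the 25 and 14 cells was 12.5 and 8.39 times its level in the other cells of the same library. Fth1 was 5.93 and 6.86 times higher, and Ftl1 2.0 and 1.56 times. Fabp3 was low there, at 19.5 CPM (interval 10.4 to 33.4) for knockout and 22.8 CPM (interval 7.4 to 53.2) for wild type. With medians of 23629 and 10926 UMIs per cell, 32% and 21.4% of these cells had a Fabp3 UMI. Among the other cells, with medians of 21456 and 26636 UMIs, 63.8% and 88.2% had one.

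In thinned counts, 60.3% of knockout and 32.3% of wild-type cells had 0 Fabp3 UMIs, and the median was 0 and 1. The top of the distribution did not follow the median: percentile 95 was 3 (knockout) and 5 (wild type), but the maximum was 25 and 22. Cd63 was at 0 in 56.5% and 46.7% of cells, with percentile 95 at 5 and 3, so knockout cells were more often at 0 and also reached higher. Of the knockout cells, 32 (3.87%, interval 2.66 to 5.43) lay above the wild-type percentile 99 of Cd63. Fabp5 was at 0 in 70.3% and 64.6% of cells, and its percentile 95 was 2 in both libraries. Fth1 ran from 4 (percentile 5) to 23 (percentile 95) in the knockout and from 4 to 17.2 in the wild type. Ftl1 ran from 36 to 128 and from 41 to 136, so the bulk of both chains overlapped.

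The high tail, the cells above percentile 95 of their library, was then set against the endoderm genes. A cell carried them when it had at least 2 thinned UMIs of Gata6 (an endoderm transcription factor), Dab2 (an endocytic adaptor) and Cubn (a protein-uptake receptor) together. In the knockout, 29 of the 32 tail cells of Cd63 did (90.6%), against 9.82% of the others. The same held for 25 of 37 tail cells of Fabp3 (67.6%, against 10.4%) and for 25 of 40 of Fth1 (62.5%, against 10.4%). For Ftl1 it was 16 of 41 (39.0%, against 11.6%) and for Fabp5 5 of 22 (22.7%, against 12.7%). Without the macrophage-marker cells, which carry Dab2, the counts were 35 of 41 for Cd63, 22 of 41 for Fth1, 13 of 41 for Ftl1 and 3 of 20 for Fabp5.

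Few wild-type cells carried these genes. Among tail cells it was 1 of 29 for Cd63 (3.45%), 1 of 33 for Fabp3 (3.03%) and 2 of 32 for Fabp5 (6.25%). For each ferritin chain it was 4 of 43 (9.30%). The shares of the other wild-type cells were lower, at 0.604% for Cd63, 0.607% for Fabp3, 0.485% for Fabp5 and 0.246% for each ferritin chain. Without the macrophage-marker cells the tail counts were 0 of 30 (Fabp5), 1 of 39 (Fth1) and 1 of 43 (Ftl1). With those cells included, the wild-type tails of Fabp5, Fabp3, Cd63 and Fth1 were led by cluster 4. It held 56.3%, 60.6%, 48.3% and 39.5% of their cells and 34.8% of all wild-type cells. The tail of Ftl1 was led by cluster 2, with 34.9% of its cells and 41.1% of all. Cluster 4 was led by Dppa3, Klhl13 and Ldhb and stayed unnamed.

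The tail of Fabp5 in the knockout had fewer mitochondrial counts, with a median of 1.82% against 3.94% in the other cells, and 40.9% of its cells were under 1% against 16.2%. Its cells were also shallower, with a median of 15644.5 UMIs against 23819.5, and whether this had a part in its Fabp5 counts was not tested. None of the 40 tail cells of Fth1 was under 1%, against 17.7% of the others. The tails of some members shared cells. Without macrophage-marker cells, Fabp3 and Cd63 shared 18 knockout cells (48.6% of the Fabp3 tail and 43.9% of the Cd63 tail). Cd63 and Fth1 shared 17 (41.5% of each). The endoderm-like cluster held 64.9% of the Fabp3 tail, 87.8% of the Cd63 tail and 56.1% of the Fth1 tail. The cluster of the shared cells themselves was not counted. The Fabp5 tail, of 20 cells, shared 0 cells with those of Fabp3, Cd63 and Fth1 and 2 with that of Ftl1 (10% of the Fabp5 tail). The tails of Fabp3, Cd63, Fth1 and Ftl1 held 37, 41, 41 and 41 of the 823 cells. With tails of this size few shared cells would be met without any link, so nothing is read from the 0.

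Genes that varied with each member over the 826 thinned knockout cells were ranked by Pearson's r on log2(count + 1). The cells share a library and a depth, and r is given as a description. For Cd63 the highest were Srgn (0.61, the proteoglycan serglycin), Sparc (0.56, a matrix protein), Lrpap1 (0.56, a chaperone of endocytic receptors), Dab2 (0.54), Serpinh1 (0.54, a collagen chaperone), Lgmn (0.54) and Ctsl (0.53), both lysosomal proteases. Chchd10 (-0.48) and Mkrn1 (-0.46) were lowest. Fabp3 had many of the same names at lower values, led by Srgn (0.46), Lgmn (0.40), Ctsl (0.39), Sparc (0.38), Col4a1 (0.38) and Cubn (0.38). With macrophage-marker and primitive endoderm-like cells left out, the highest r was 0.16 for Cd63 and 0.18 for Fabp3.

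Fth1 in the knockout varied with Ftl1 (0.40), Dab2 (0.40), Lgmn (0.38) and Srgn (0.38), and opposite to the pluripotency genes Dppa5a (-0.37) and Pou5f1 (-0.34). Outside macrophage-marker and endoderm-like cells the leading genes were Mt1 (0.30) and Mt2 (0.26), the metallothioneins that bind zinc and copper, and then Ftl1 (0.25). Between the ferritin chains r was 0.37 over 857 wild-type cells, and 0.25 over the 852 left there by the same exclusions. Ftl1 varied with mt-Nd1 (0.37) and other mitochondrial genes in the knockout, and opposite to Npm1 (-0.41) and Pkm (-0.39). Its r with mt-Nd1 was 0.39 in the 728 cells and 0.25 once cells under 1% mitochondrial counts were also left out. Gm10116, the Ftl1 copy, stood at 0.42 with it and is not counted among these. For Fabp5 the highest r was 0.17 in the knockout (0.20, with Eno1, in the 728 cells) and 0.14 in the wild type, and for Fabp3 in the wild type the highest was Apoe (0.29).

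**Figure D4:**
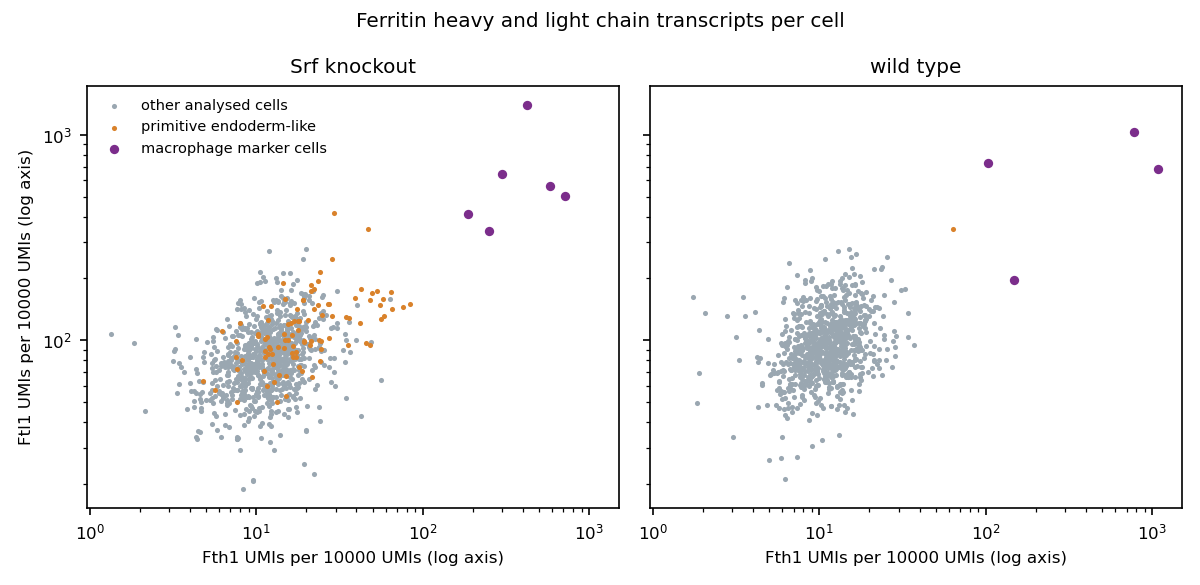
Fth1 against Ftl1 UMIs per 10000 UMIs of each analysed cell (log axes; cells with 0 of either are not drawn), 970 knockout cells on the left and 900 wild-type cells on the right. The 6 and 4 macrophage-marker cells lie at the upper right of both panels, and the primitive endoderm-like cells of the knockout extend to higher Fth1 than most other cells.

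Levels were also compared within the 4 clusters that held at least 10 cells of each library, macrophage-marker cells left out. Fabp3 was lower in the knockout in cluster 4, at 116 CPM in 38 cells against 249 CPM in 302 cells (log2 ratio -1.09, interval -1.37 to -0.84), where 1.54% of all genes were at least 2 times lower. Cluster 5 had 73.9 CPM in 27 cells against 160 CPM in 158 (log2 ratio -1.09, interval -1.79 to -0.50; 3.68% of genes were as low). In cluster 2, named pluripotent-like, the difference was smaller, at 160 CPM in 27 cells against 202 CPM in 354 (log2 ratio -0.33, interval -0.61 to -0.08). In cluster 1 it was within counting error, at 61.4 CPM in 483 knockout cells and 71.6 CPM in 18 wild-type cells (log2 ratio -0.24, interval -0.70 to 0.30). The libraries fill these clusters in very unlike numbers, so the pooled difference compares different clusters as well as different genotypes.

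Cd63 differed unequally between the clusters. It was lower in the knockout in cluster 4 (log2 ratio -0.39, interval -0.67 to -0.13) and cluster 5 (-1.84, interval -3.28 to -0.86, on 7 knockout UMIs). The ratio was 0.09 in cluster 2 (interval -0.28 to 0.42) and 0.53 in cluster 1 (interval 0.00 to 1.18, on 26 wild-type UMIs). Fth1 lay between -0.14 and 0.09 in all 4 clusters. Ftl1 was at -0.39 in cluster 4 (interval -0.43 to -0.36) and between -0.13 and -0.05 in the others. Fabp5 was at -0.63 in cluster 2 (interval -1.26 to -0.11), and its interval included 0 in clusters 1, 4 and 5. In the 54 wild-type cells of cluster 7, a mixed cluster with Rhox6, Krt18 and Krt8 among its leading genes, Fabp5 was at 139 CPM and Cd63 at 239 CPM after the macrophage-marker cells were left out. The 283 knockout cells of cluster 0, which have a median of 0.208% mitochondrial counts and 8511 UMIs, had Cd63 at 41.0 CPM and Ftl1 at 6899.7 CPM, and the part of depth and of RNA quality in those levels was not tested.

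**Figure D5:**
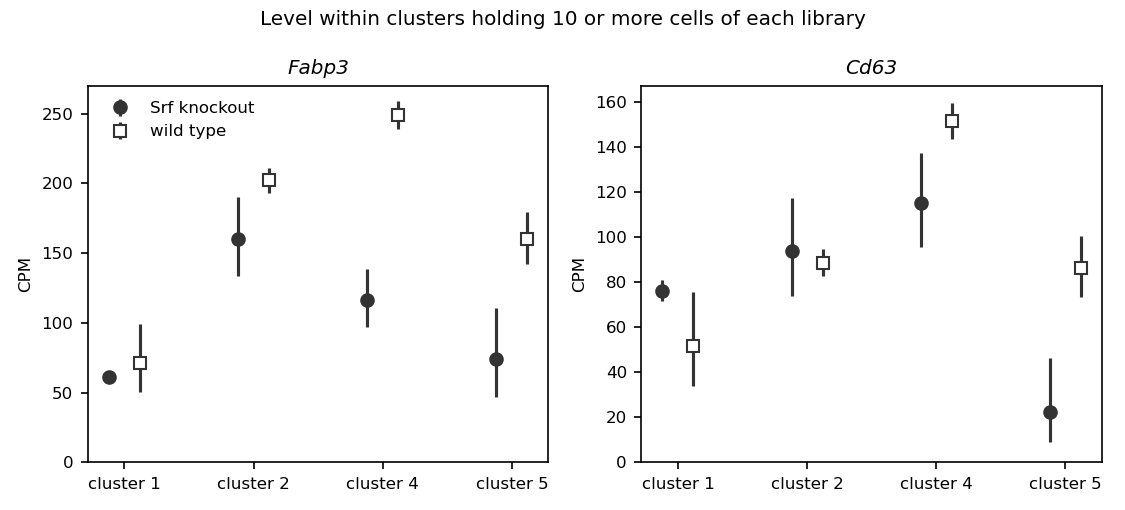
CPM of Fabp3 and Cd63 in the 4 clusters with at least 10 cells of each library (filled circles, knockout; open squares, wild type; bars, 95% counting intervals). Fabp3 intervals are apart in clusters 2, 4 and 5 and overlap in cluster 1, and Cd63 intervals overlap in clusters 1 and 2.

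Other genes of the same pathways were followed through lists that do not contain the members. Of the 36 lysosomal genes 29 reached 10 CPM, and 3 were at least 2 times higher in the knockout and 0 lower (1.14% and 0.572% of all 6467 genes were), with a median log2 ratio of 0.26 against 0.07 for all genes. The 3 were proteases: Ctsc (28.0 and 6.54 CPM, log2 ratio 2.09), Lgmn (61.8 and 18.1 CPM, 1.77) and Ctsl (219 and 80.7 CPM, 1.44). Lamp1, a major membrane protein of the lysosome, was at 231 and 158 CPM, Npc2, a cholesterol carrier, at 149 and 155 CPM. Without macrophage-marker and endoderm-like cells the count was 0 of 27 in either direction and the median -0.15, with Ctsl at 72.0 and 77.6 CPM. In the 99 endoderm-like cells 19 of 32 lysosomal genes were at least 2 times their level in the other knockout cells, where 17.1% of all genes were. In the macrophage-marker cells it was 32 of 36 in the knockout and 26 of 34 in the wild type, where 41.1% and 35.1% of all genes were, and without those cells the list median was 0.16. Genes entered these comparisons by their level in the compared groups, so more entered than over the libraries (36 against 29). A gene low elsewhere can enter through a few of the 65234 UMIs of the knockout macrophage-marker cells, and then counts as higher. All genes entered by the same rule, and these counts are descriptions.

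Tetraspanin and exosome genes gave 0 of 12 past 2-fold in either direction (median 0.13), with Cd9 at 140 and 171 CPM and Cd81 at 145 and 159 CPM. In the endoderm-like cells 8 of 13 were at least 2 times higher, where 17.1% of all genes were. In the macrophage-marker cells 7 of 12 were higher in the knockout (41.1% of all genes) and 3 of 11 in the wild type (35.1%). Fatty-acid genes gave 0 of 18 of the 45 listed (median 0.14). Dbi, a carrier of acyl-CoA, was at 271 and 269 CPM and Scd2, a fatty-acid desaturase, at 136 and 101.3 CPM. Fabp4, the fatty-acid binding protein of fat cells and macrophages, had 3 and 6 UMIs in the analysed cells, and together with Cd36, Plin2 and Lpl it led the list in the macrophage-marker cells. There 16 of 30 fatty-acid genes were at least 2 times higher and 5 lower in the knockout (41.1% and 25.9% of all genes were), and 12 of 26 were higher in the wild type (35.1%). Genes such as Fabp4 entered only through their UMIs in these cells, so the rule of entry fixed that they were higher. In the endoderm-like cells 9 of 22 were higher (17.1%).

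Iron genes gave 0 of 13 past 2-fold (median 0.13). Hmox1, which frees iron from haem, was at 70.0 and 39.2 CPM (log2 ratio 0.84), and at 61.2 and 38.1 CPM without macrophage-marker and endoderm-like cells. Pcbp1 and Pcbp2, which deliver iron to ferritin, were at 397 and 313 CPM and at 591 and 605 CPM. In the macrophage-marker cells 11 of 18 iron genes of the knockout and 7 of 15 of the wild type were at least 2 times higher than in the other cells, where 41.1% and 35.1% of all genes were. The rule of entry was that of the lysosomal list. In the endoderm-like cells 2 of 15 iron genes were higher and 2 lower, where 17.1% and 5.57% of all genes were. Genes of the oxidative stress response controlled by Nrf2, which also acts on ferritin, gave 0 of 17 (median -0.05), among them Prdx1, a peroxidase, at 1529 and 1244 CPM and Txn1, a thioredoxin, at 511 and 571 CPM. In the endoderm-like cells 2 of 17 were at least 2 times higher (17.1% of all genes). In the macrophage-marker cells 5 of 16 were higher in the knockout (41.1%) and 8 of 18 in the wild type (35.1%).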

How the data were processed

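Mouse iPSCs were profiled as 1 droplet library per genotype. The authors deposited whole-number UMI counts per gene and cell, not normalised, per the file headers. The submitters' processing notes name Cell Ranger 2.0.0, Seurat 3.1.1 and mm10, with no roles; the annotation, the cell calling and the treatment of shared reads are not given in the sources used here.

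Cells under 1000 genes or over 10% mitochondrial counts were removed (76 knockout and 35 wild-type cells). Scrublet in scanpy 1.11.5 called 2 and 5 doublets, so few that some probably remained. Cells were clustered without the 5 genes and Srf (2000 variable genes, 30 components, 15 neighbours, Leiden resolution 0.5), giving 8 clusters named by at least 3 markers among the 50 leading genes. The cluster named by macrophage markers was mixed (13 knockout and 58 wild-type cells), so macrophage-marker cells were set by UMIs. A fibroblast-like cluster (25 and 14 cells) was left out.

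CPM are sums over cells; log2 ratios had 0.5 counts added. Genes entered with at least 10 CPM (levels) or a thinned mean of at least 0.5 (CV2). Intervals are exact (Poisson, or Clopper-Pearson for shares). The CV2 calculation was tested on simulated data. The named genes were the 5 members, per member the genes of highest and lowest r, and of each list the genes past 2-fold and those of highest level. Members and lists were chosen with earlier results of these data known. Positions come from GENCODE M21 by identifier, promoters from RefSeq (4 of 5 genes matched). Alternatives included other depths, filters, scalings (edgeR 4.0.16, DESeq2 1.42.0 size factors) and cell sets.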

Additional observations from a re-analysis of the deposited data

How the results depend on the processing

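With 1 library per genotype no result has a replicate check. No paired analysis was possible because there is a single library on each side. CV2 ratios within 1.5 times, and levels and list medians within 0.1 on the log2 scale, are taken as unmoved. Of 95 alternative CV2 ratios 60 were unmoved, 24 moved and 11, of Fth1 and Fabp5, reversed. A change of sign was called reversed only where the main ratio was at least 2-fold. The changes of sign of Ftl1 are therefore among the moved and unmoved ratios. The limit of 1.5 times was set after the values were seen; with 0.1, as for levels, 59 would have moved. Of 65 alternative levels 48 were unmoved, of 30 tail shares 22 and of 20 list medians 17. Leaving out macrophage-marker cells, the sets that add to this, and CV2 minus 1/mean within those sets were chosen after seeing the data.

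The CV2 log2 ratio of Fth1 (-1.54) reversed to 0.76 after thinning to 15000 UMIs and to 2.10 with a mitochondrial limit of 5%. Thinning to 15000 UMIs drops both wild-type cells of highest Fth1 and the knockout cell of highest Fth1. The 5% limit drops all 4 wild-type macrophage-marker cells (5.64% to 7.33%) and keeps 1 knockout one (1.96%). Both settings thus also change which macrophage-marker cells are counted. The ratio was also reversed at 0.86 without macrophage-marker cells, 0.46 without endoderm-like cells as well and 0.48 without cells under 1% mitochondrial too. As CV2 minus 1/mean the 3 steps of exclusion gave 1.41, 0.90 and 0.94. It was -0.96 at 5000 UMIs and -0.61 with a limit of 20%. Fabp5 (2.54) was at 0.46 with 15000 UMIs, a depth that drops the cell of 14968 UMIs with most Fabp5, and at 3.17 as CV2 minus 1/mean. It was 0.11, 0.035 and 0.13 under the 3 steps of exclusion, reversed to -0.43, -0.73 and -1.13 as CV2 minus 1/mean in these, and 0.69 without the highest cell of each library. Ftl1 (-0.45) was at 0.53 with 5000 UMIs, 0.72 with the 5% limit and 0.18 without macrophage-marker cells, also as CV2 minus 1/mean. Fabp3 (1.72) was at 0.89 without endoderm-like cells, 1.05 without these and low-mitochondrial cells, and 0.88 and 1.04 with macrophage-marker cells also left out, or 0.34 and 0.49 as CV2 minus 1/mean. Cd63 (1.32) was at 2.25 as CV2 minus 1/mean, 2.19 so without macrophage-marker cells, and in the latter 2 sets at 0.54 and 0.49, or 0.14 and 0.20 as CV2 minus 1/mean. Other causes were not tested.

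In level, Fabp5 (-0.20) was at -0.076 with the 5% limit, 0.068 as the mean of per-cell CPM, and -0.38, -0.41 and -0.51 under the 3 steps. Fabp3 (-1.01) was at -0.88 as the mean of per-cell CPM, -1.47 without endoderm-like cells, -1.54 without low-mitochondrial cells too, and -1.46 and -1.54 with macrophage-marker cells also left out. Cd63 (-0.02) was at 0.14 with fibroblast-like cells and doublets kept, -0.70 without endoderm-like cells, 0.099 without low-mitochondrial cells, -0.57 without both, and -0.76 and -0.63 with macrophage-marker cells also left out. Fth1 (0.23) was at 0.33 with fibroblast-like cells and doublets kept. The median over all genes was 0.07 by CPM, 0.0023 by TMM and -0.012 by median-of-ratios scaling. The direction for Fabp3 was lower in the knockout under every alternative run.

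The share of knockout tail cells carrying endoderm genes, above percentile 99, was 50% for Fabp5, 100% for Fabp3, 100% for Cd63, 77.8% for Fth1 and 66.7% for Ftl1. Above percentile 90 it was 48.6% for Fabp3 and 70.4% for Cd63, and with 15000 UMIs 88.5% for Fabp3. The lysosome median (0.26) was 0.094 without endoderm-like and low-mitochondrial cells and 0.16 without macrophage-marker cells, and the tetraspanin median (0.13) was -0.060 in the former set.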
